A study of Mus musculus with 36 samples.

Results

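The nuclear genes for subunits of respiratory complexes III, IV and V were followed in 36 mouse brain libraries, from Gpt2 knockouts and wild types; Gpt2 is an enzyme of the mitochondrial matrix that interconverts alanine and pyruvate. Members were the rows of the deposited count table whose symbol starts with Uqcr, Cyc1, Cox4, Cox5, Cox6, Cox7, Cox8 or Atp5 and whose mean over the libraries is at least 1 CPM, the counts scaled to a common library total. Of 56184 symbols, 58 carried these prefixes. The 12 pseudogene symbols, Cox6a2 and Cox8c, which had a mean of 0.005 CPM and no count in 34 libraries, were left out, and 44 members remained. They comprised 9 genes of complex III, 17 of complex IV and 18 of complex V. Just inside the limit lay Cox4i2 with 1.30 CPM, Cox7b2 with 1.53 CPM and Cox8b with 1.94 CPM. All 44 members passed the filter on low counts and had counts in every library.

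The 4 groups were Gpt2 knockouts given dm-αKG (KO-aKG, 8 libraries), Gpt2 knockouts given vehicle (KO-Veh, 10 libraries), wild types given dm-αKG (WT-aKG, 8 libraries) and wild types given vehicle (WT-Veh, 10 libraries). The labels give dm-αKG, an α-ketoglutarate ester that enters cells, by intraperitoneal injection at 600 mg per kg, and sampling at postnatal day 19. Each extraction used 10 mg of brain tissue. The sources used here name neither the deleted stretch of Gpt2 nor the brain region, strain or sex. Replicates are called biological, without a statement that every library is another animal, and the p-values therefore describe spread among libraries.

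Complex III passes electrons from ubiquinol to cytochrome c, complex IV passes them from cytochrome c to oxygen, and both move protons across the inner mitochondrial membrane. Complex V, the ATP synthase, lets protons return and makes ATP. Each complex joins nuclear subunits to a subunit or subunits made from the mitochondrial genome. Several complex IV subunits exist as paired isoforms, a widely expressed form and a form of muscle, lung or testis. Neurons depend on these complexes for most of their ATP.

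Gpt2 averaged 2.37 ± 0.70 CPM in KO-aKG (SD, n = 8), 2.04 ± 0.84 CPM in KO-Veh (n = 10), 32.3 ± 3.94 CPM in WT-aKG (n = 8) and 30.2 ± 5.61 CPM in WT-Veh (n = 10), and no library went against its label. Here and below, levels of a gene across libraries are CPM scaled by TMM, the trimmed mean of M values. Libraries held 5.77 to 13.3 M counts (median 11.4 M), of which 14.1% to 29.8% were mitochondrial ribosomal RNA. A score of 21 cerebellum markers, their mean log2 CPM, ran between 1.94 and 7.76 and left a gap between 4.48 and 5.55. Above it lay 1 of 8 KO-aKG, 1 of 10 KO-Veh, 4 of 8 WT-aKG and 3 of 10 WT-Veh libraries, the 9 cerebellum-high libraries, so the score was not balanced over the groups. Xist exceeded Ddx3y, a Y-linked gene, in 4 of 8 KO-aKG, 2 of 10 KO-Veh, 5 of 8 WT-aKG and 2 of 10 WT-Veh libraries. The neuronal genes Snap25 and Map2 averaged 632 and 388 CPM. In bulk tissue, fewer cells of a type and less RNA per cell cannot be told apart.

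Levels of the members differed widely. Together the 44 members took 1.56% to 2.97% of a library's counts, with group medians of 2.18% in KO-aKG, 1.98% in KO-Veh, 2.16% in WT-aKG and 1.79% in WT-Veh. By mean CPM of the gene, complex III ran between 123 for Uqcrfs1, the Rieske iron-sulfur protein, and 795 for Uqcrh, the hinge protein. Complex IV ran between 1.30 CPM for Cox4i2 and 1654 CPM for Cox4i1, the highest of all members, while complex V ran between 61.2 CPM for Atp5mc2 and 1298 CPM for Atp5f1e, the ε subunit of the central stalk. Per kilobase of the longest annotated transcript, a coding one except for Cox6c2, Atp5f1e was highest with 3084 CPM, ahead of Cox6a1 with 2198, Cox4i1 with 2163 and Cox8a with 1994. Atp5f1a and Atp5f1b, the α and β subunits of the synthase head, had 175 and 251 CPM per kilobase. The libraries were primed with oligo-dT, and how far coverage followed transcript length was not tested, so levels per kilobase are a rough guide.

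The members are spread over 18 chromosomes, as far as the 42 with a match in GENCODE M21 or RefSeq show (GRCm38). Cox4i1 alone shares chromosome 8 with Gpt2 and lies 35.1 Mb from it (chr8:120668222-120674207, plus strand), and Cox7b alone lies on X. Of the 42, 18 share at least 150 bases at 95% identity or more with another counted gene, a copy or an overlapping gene, and for 15 that gene had at least 1 CPM. The values of these members are uncertain because reads may be split. Atp5mg, the g subunit, had 155 CPM, while its copy Gm10221 had 124 CPM and matched it over 309 bases at 100% identity, and all its copies summed to 244 CPM. Cox5b had 546 CPM and its copy Cox5b-ps 176 CPM, with 99.2% identity over 390 bases. Cox6c2, annotated as a processed pseudogene, had 93.1 CPM and matches Cox6c, which had 1012 CPM, at 97.0% over 231 bases. Emc8 overlaps Cox4i1, and the sources used here do not say whether counting used strand.

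Isoforms of muscle, lung or testis made up small shares of their pairs. Per kilobase, Cox4i2, the lung isoform of subunit 4, gave a median of 0.0636% of the Cox4i1 and Cox4i2 sum in KO-aKG, 0.0538% in KO-Veh, 0.0824% in WT-aKG and 0.0807% in WT-Veh. Cox7a1, the heart and skeletal muscle isoform of subunit 7a, gave 2.37%, 1.40%, 2.67% and 1.99% of its sum with Cox7a2 in KO-aKG, KO-Veh, WT-aKG and WT-Veh. These shares overlapped between all groups. Cox6b2, known as the testis isoform of subunit 6b, gave 1.10%, 0.694%, 1.21% and 1.06% of its sum with Cox6b1 in the same order of groups. Cox8b, the heart and muscle isoform of subunit 8, gave 0.319%, 0.0862%, 0.253% and 0.173% of its sum with Cox8a, and Cox7b2 gave 0.202%, 0.280%, 0.229% and 0.288% of its sum with Cox7b. Of the 12 muscle markers, Acta1, skeletal actin, was highest with 14.0 CPM and Myh7, the slow myosin heavy chain, followed with 4.79 CPM. The markers Ckm, Mb and Actc1, the muscle creatine kinase, myoglobin and cardiac actin, averaged 0.156, 0.26 and 0.046 CPM, and all 12 muscle markers summed to 15.2 to 32.1 CPM in KO-aKG, 9.96 to 40.3 CPM in KO-Veh, 10.9 to 31.6 CPM in WT-aKG and 10.4 to 33.2 CPM in WT-Veh.

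Cox6a2, the heart and muscle isoform of subunit 6a, was not a member but is the partner of Cox6a1. It averaged 56.6 ± 19.9 CPM in KO-aKG (SD, n = 8), 76.3 ± 34.6 CPM in KO-Veh (n = 10), 5.18 ± 3.43 CPM in WT-aKG (n = 8) and 7.60 ± 4.81 CPM in WT-Veh (n = 10). Its median share of the Cox6a sum per kilobase was 3.68% in KO-aKG, 4.89% in KO-Veh, 0.283% in WT-aKG and 0.646% in WT-Veh. The partner Cox6a1 averaged 1167 ± 203 CPM in KO-aKG, 1392 ± 331 CPM in KO-Veh, 1382 ± 234 CPM in WT-aKG and 1144 ± 251 CPM in WT-Veh, and it was not called between genotypes. Cox6a2 was higher in knockouts by 3.34 log2 units with vehicle (SE 0.46, adjusted p = 7.64e-06) and by 3.46 with dm-αKG (SE 0.52, adjusted p = 6.31e-05, edgeR). All knockout libraries lay above all wild-type libraries but for KO-Veh-7, a cerebellum-high library with 5.94 CPM. The highest share that Cox6a2 reached in a library was 6.95%.

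The promoters of 4 members are printed because the results below turn on Cox8a, Cox6b2 and Atp5if1, and because Cox6a1 is an example with matches to both NRF1 and ETS, as also found for Atp5me, Atp5mg and Uqcr11. They are the 250 bases before the RefSeq start (GRCm38.p6, all on the minus strand, written 5′ to 3′), with motif letters in capitals. The windows are chr19:7217617-7217866 for Cox8a, chr7:4753095-4753344 for Cox6b2, chr4:132535415-132535664 for Atp5if1 and chr5:115348959-115349208 for Cox6a1.
Cox8a: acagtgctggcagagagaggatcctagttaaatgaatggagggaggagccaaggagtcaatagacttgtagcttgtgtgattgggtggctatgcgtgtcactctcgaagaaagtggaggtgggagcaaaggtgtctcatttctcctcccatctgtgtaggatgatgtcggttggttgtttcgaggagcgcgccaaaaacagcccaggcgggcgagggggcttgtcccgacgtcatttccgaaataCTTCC
Cox6b2: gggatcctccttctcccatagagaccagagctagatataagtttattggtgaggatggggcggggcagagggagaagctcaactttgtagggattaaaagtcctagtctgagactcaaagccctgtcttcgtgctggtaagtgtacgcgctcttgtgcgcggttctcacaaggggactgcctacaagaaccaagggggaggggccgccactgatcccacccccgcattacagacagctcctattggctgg
Atp5if1: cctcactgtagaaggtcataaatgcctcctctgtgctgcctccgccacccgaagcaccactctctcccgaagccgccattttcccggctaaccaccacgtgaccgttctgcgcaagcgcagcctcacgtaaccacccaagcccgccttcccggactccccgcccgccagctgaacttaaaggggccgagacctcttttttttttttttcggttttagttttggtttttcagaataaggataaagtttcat
Cox6a1: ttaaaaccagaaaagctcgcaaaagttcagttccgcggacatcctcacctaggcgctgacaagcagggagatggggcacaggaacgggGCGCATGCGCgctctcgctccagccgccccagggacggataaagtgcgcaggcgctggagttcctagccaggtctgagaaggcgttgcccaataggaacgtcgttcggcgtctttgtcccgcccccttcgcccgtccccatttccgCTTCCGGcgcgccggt

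In Cox6a1 the NRF1 letters GCGCATGC begin at position -162 from the start and, on the opposite strand, at -160, overlapping each other, and the ETS letters CCGGAAG begin on the opposite strand at -16. In Cox8a the ETS letters begin on the opposite strand at -5 and run past the start, and a further ETS match begins on that strand at position 32, outside the printed bases. No motif was found in the Cox6b2 and Atp5if1 windows, and the RefSeq start of Atp5if1 lies outside the GENCODE M21 gene (chr4:132530555-132533659). Over the whole window of 300 bases on both strands, 33 members matched 36 promoters, of which 16.7% held NRF1, 27.8% held ETS and 5.56% held the YY1 letters AAGATGGCG. Of all 32851 promoters 2.71%, 8.86% and 1.40% did. Any of the 3 was present in 36.1% of member promoters and 12.1% of all promoters. A match describes letters and is not a binding site.

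With vehicle, few members were called between genotypes, and few of all genes were. In KO-Veh against WT-Veh, Atp5if1 was higher and no member was called lower by the edgeR quasi-likelihood test, with p adjusted over 16255 genes after Benjamini and Hochberg and a threshold of 0.05. That is 1 of 44 members, where 4.31% of all genes tested were called, 2.6% higher and 1.72% lower. At an unadjusted p under 0.05, 3 members were higher and 4 lower, where 10% of all genes were higher and 11% lower, and DESeq2 also called none lower. The 95% interval lay within 0.5 log2 units of 0 for 34 of 44 members, and the share of all genes with such an interval was not counted. The median log2 fold change of the members was 0.10, against -0.02 for all genes, and 28 of 44 were positive. With scores of 5 brain regions as covariates 34 of 44 were positive (median 0.17, all genes -0.02). In that fit 14 members were higher and 1 lower at an unadjusted p under 0.05, where 11.7% of all genes were higher and 13.8% lower.

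Atp5if1 encodes the inhibitory factor that blocks ATP hydrolysis by the ATP synthase. It ran between 320 and 674 CPM with a median of 530 in KO-Veh, against 271 to 542 CPM with a median of 386 in WT-Veh. The ranges overlapped, and the KO-Veh median lay near the highest WT-Veh library. The log2 fold change was 0.41 (SE 0.12) with an adjusted p of 0.0375 (edgeR). The call of Atp5if1 ended without the 9 cerebellum-high libraries (log2 fold change 0.35, adjusted p = 0.12), without a filter on low counts (adjusted p = 0.0820) and with only the groups compared (adjusted p = 0.119). It also ended, at 0.36 to 0.42 and adjusted p of 0.0502 to 0.0858, in 11 of 36 fits that each left out 1 library: KO-Veh-2, KO-Veh-4, KO-Veh-5, KO-Veh-6, KO-Veh-8, KO-Veh-10, WT-Veh-1, WT-Veh-2, WT-Veh-3, WT-Veh-6 or WT-Veh-9. With scores of 5 brain regions as covariates the call held, at 0.34 with an adjusted p of 0.0285. In the same comparison all 21 cerebellum markers (median log2 fold change -1.09), all 12 oligodendrocyte markers (-0.61) and all 8 choroid plexus markers (-0.95) were negative, and edgeR called none of them, with 1, 1 and 5 lower at an unadjusted p under 0.05. Summed, the cerebellum markers ran between 210 and 9964 CPM in KO-Veh and 382 and 9989 CPM in WT-Veh. The choroid plexus markers summed to between 28.5 and 1139 CPM in KO-Veh and 30.4 and 1912 CPM in WT-Veh, and the oligodendrocyte markers between 3458 and 20225 CPM in KO-Veh and 4077 and 41088 CPM in WT-Veh. The part of the oligodendrocyte and choroid plexus markers in the Atp5if1 difference was not tested.

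Below the threshold, the highest log2 fold changes after Atp5if1 belonged to Cox6a1 (0.28, SE 0.13, adjusted p = 0.224), Cox7c (0.23), Cox6c (0.23) and Cox7b (0.22), all small subunits of complex IV. The lowest belonged to weakly expressed isoforms, Cox8b (-1.05, SE 0.45, adjusted p = 0.171), Cox6b2 (-0.79, SE 0.35, adjusted p = 0.187), Cox7a1 (-0.58) and Cox4i2 (-0.33), and to Cyc1, cytochrome c1 (-0.25). Complex III had no called member and a median of 0.02, complex IV none and a median of 0.13, and complex V Atp5if1 alone and a median of 0.07. The core proteins Uqcrc1 and Uqcrc2 and the Rieske protein Uqcrfs1 had values of 0.00, 0.10 and -0.04. Without the library KO-Veh-7, the only cerebellum-high one of KO-Veh, Cox6b2 was called lower as well (-1.17, edgeR adjusted p = 0.0227). That fit kept 3 cerebellum-high WT-Veh libraries, and the part of this in the call was not tested. Over 12 alternative fits the log2 fold change of Cox6b2 ran between -1.14 and -0.32.

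**Figure D1:**
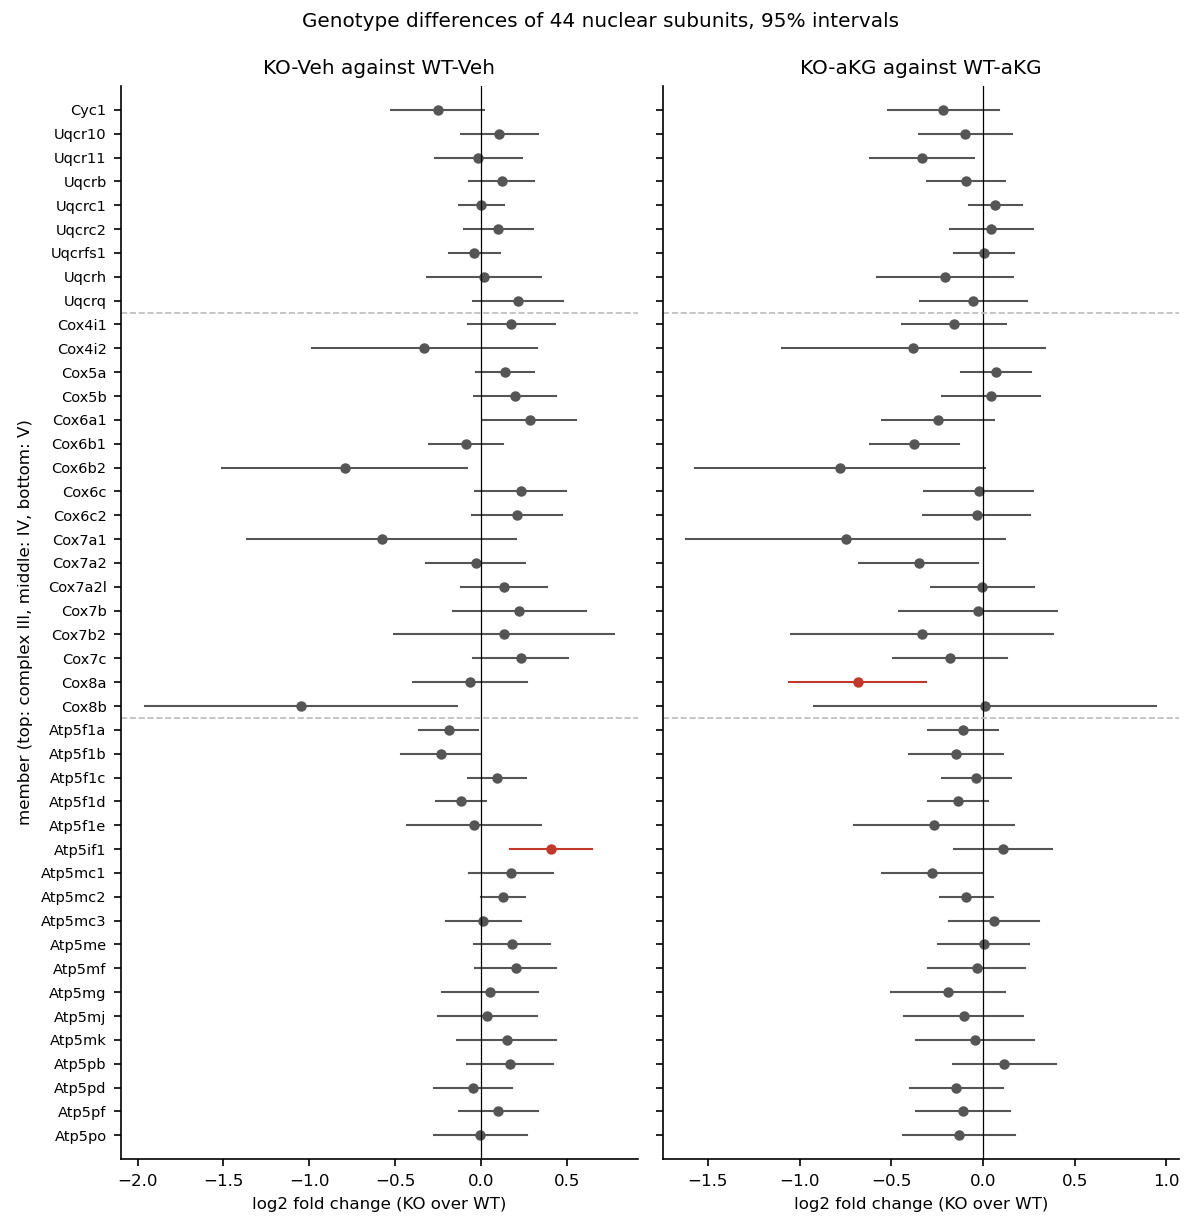
Log2 fold change of KO over WT for the 44 members (points) with 95% intervals (lines), with vehicle on the left and with dm-αKG on the right; members run down the page by complex and name, and red marks the called genes. Atp5if1 (0.41) is red with vehicle and Cox8a (-0.68) with dm-αKG, and most other intervals cross 0.

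With dm-αKG in both genotypes, Cox8a was the member that differed. In KO-aKG against WT-aKG, 1 of 44 members was lower and none higher, where 1.87% of all genes were called, 1.12% higher and 0.751% lower. At an unadjusted p under 0.05, 5 members were lower and 0 higher, where 8.76% of all genes were lower and 6.95% higher, and DESeq2 likewise called none higher. The median log2 fold change of members was -0.11, against -0.02 for all genes, and 34 of 44 were negative. That direction turned with the processing: 25 of 44 were positive without the cerebellum-high libraries (median 0.024, all genes 0.028). With scores of 5 brain regions as covariates it was 29 of 44 (median 0.06, all genes -0.01). With limma on the CPM table it was 30 of 43 (median 0.07, all genes 0.15). Of these fits, only that with region scores gave a member median above that of all genes.

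Cox8a, the widely expressed form of the smallest complex IV subunit, ran between 580 and 1206 CPM with a median of 816 in KO-aKG, against 950 to 1789 CPM with a median of 1309 in WT-aKG. The ranges overlapped, but 6 of 8 KO-aKG libraries lay below all WT-aKG libraries. The log2 fold change was -0.68 (SE 0.18), with an adjusted p of 0.0423 (edgeR). It was -0.70 without the cerebellum-high libraries (adjusted p = 0.0565), and -0.20 with region scores as covariates (adjusted p = 0.476). Without a filter on low counts the adjusted p was 0.0663, with only the groups compared it was 0.0521, and limma on the CPM table gave 0.0938. The call of Cox8a ended, at -0.70 to -0.62 and adjusted p of 0.0517 to 0.115, in 15 of 36 fits without 1 library: KO-aKG-1, KO-aKG-2, KO-aKG-4, KO-aKG-5, KO-aKG-6, KO-aKG-8, KO-Veh-10, WT-aKG-1, WT-aKG-2, WT-aKG-3, WT-aKG-4, WT-aKG-6, WT-aKG-7, WT-Veh-8 or WT-Veh-10.

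Region markers differed in this comparison too. Of 14 hypothalamus, thalamus and midbrain markers tested, 12 were positive in KO-aKG against WT-aKG with a median log2 fold change of 1.84, and 2 were called higher. Their score, a mean log2 CPM, ran between -0.03 and 5.10 in KO-aKG and -0.18 and 2.30 in WT-aKG. All 21 cerebellum markers were negative, with a median of -1.96. The part of these markers in the Cox8a difference was not tested beyond the fits above.

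With vehicle the same gene had a median of 1034 CPM in KO-Veh and 1077 CPM in WT-Veh, and its log2 fold change was -0.07 (SE 0.16, adjusted p = 0.852). The difference of the genotype differences of Cox8a was -0.62 (SE 0.25), with an adjusted p of 0.961 (edgeR), so the genotype difference was not shown to depend on treatment. The lowest values below the threshold with dm-αKG were those of Cox6b2 (-0.78, adjusted p = 0.322, but 0.21 without the cerebellum-high libraries), Cox7a1 (-0.75), Cox4i2 (-0.38) and Cox6b1 (-0.37, SE 0.12, adjusted p = 0.0989). The highest were Atp5pb, a peripheral stalk subunit (0.12), Atp5if1 (0.11, adjusted p = 0.739), Cox5a (0.07), Uqcrc1 (0.07) and Atp5mc3 (0.06).

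**Figure D2:**
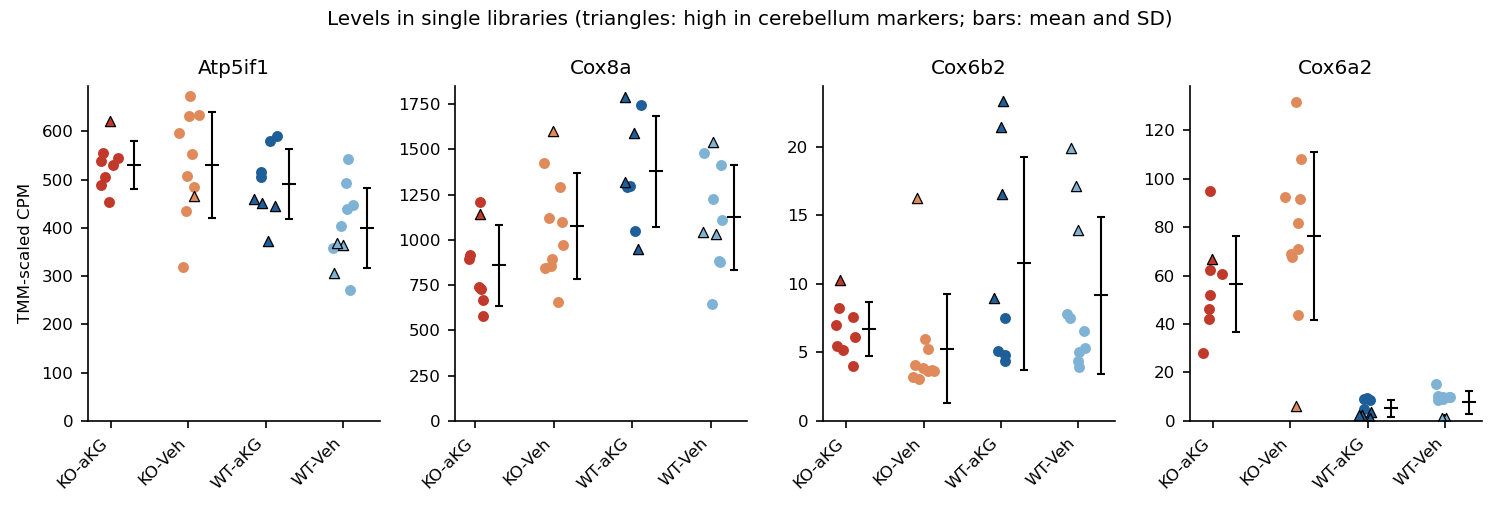
TMM-scaled CPM of Atp5if1, Cox8a, Cox6b2 and Cox6a2 in each library of KO-aKG, KO-Veh, WT-aKG and WT-Veh; triangles are the 9 cerebellum-high libraries, and bars give the mean and SD. Cox8a medians are 816, 1034, 1309 and 1077 CPM from left to right, and the highest Cox6b2 values are cerebellum-high libraries in every group.

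Averaged over both treatments, 1 member was higher and 2 were lower in knockouts, where 11.9% of all genes were called, 5.7% higher and 6.17% lower. Members were evenly split, with 22 of 44 positive and a median log2 fold change of 0.00. For 38 of 44 the 95% interval lay within 0.5 log2 units of 0, and the share of all genes with such an interval was not counted. At an unadjusted p under 0.05, 1 was higher and 8 lower, where 12.3% of all genes were higher and 16.2% lower. The even split did not hold with region scores as covariates, where 32 of 44 were positive (median 0.11, all genes -0.02). In that fit 14 members were higher and 0 lower at such a p, where 14% of all genes were higher and 17% lower.

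The members called in this average were Atp5if1 (0.26, SE 0.09, adjusted p = 0.0482), Cox8a (-0.37, SE 0.12, adjusted p = 0.0408) and Cox6b2 (-0.79, SE 0.26, adjusted p = 0.0442). Cox6b2 ran between 3.99 and 10.3 CPM (median 6.55) in KO-aKG, 3.08 and 16.3 CPM (median 3.80) in KO-Veh, 4.37 and 23.4 CPM (median 8.26) in WT-aKG, and 3.94 and 20 CPM (median 7.06) in WT-Veh. The highest library of each group was cerebellum-high. Without those 9 libraries its log2 fold change was -0.14 (adjusted p = 0.560), and with region scores as covariates it was -0.23 (adjusted p = 0.218). Beside the called members, the highest values were those of Atp5pb (0.14), Cox5b (0.12), Cox5a (0.11) and Cox6c (0.10), and the lowest were those of Cox7a1 (-0.66), Cox8b (-0.52) and Cox4i2 (-0.36). The widely expressed isoform Cox6b1 just missed the threshold (-0.23, SE 0.08, adjusted p = 0.0541) and was called by DESeq2 (adjusted p = 0.0423).

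Each of these calls ended in most of the 36 fits that left out 1 library. The call of Atp5if1 was lost in 23 fits (adjusted p 0.0508 to 0.0787), that of Cox8a in 21 (0.0505 to 0.0766) and that of Cox6b2 in 21 (0.0519 to 0.0917), while fold changes kept their sign. Leaving out any of these ended the call of Atp5if1: KO-aKG-1, KO-aKG-2, KO-aKG-3, KO-aKG-4, KO-aKG-7, KO-aKG-8, KO-Veh-2, KO-Veh-4, KO-Veh-5, KO-Veh-6, KO-Veh-8, KO-Veh-10, WT-aKG-2, WT-aKG-3, WT-aKG-5, WT-aKG-6, WT-aKG-7, WT-aKG-8, WT-Veh-1, WT-Veh-2, WT-Veh-3, WT-Veh-6, WT-Veh-9. For Cox8a they were KO-aKG-1, KO-aKG-2, KO-aKG-4, KO-aKG-5, KO-aKG-6, KO-aKG-8, KO-Veh-1, KO-Veh-3, KO-Veh-5, KO-Veh-6, KO-Veh-8, KO-Veh-9, KO-Veh-10, WT-aKG-1, WT-aKG-3, WT-aKG-6, WT-aKG-7, WT-Veh-4, WT-Veh-7, WT-Veh-8, WT-Veh-9. For Cox6b2 they were KO-aKG-1, KO-aKG-2, KO-aKG-3, KO-aKG-4, KO-aKG-5, KO-aKG-8, KO-Veh-1, KO-Veh-2, KO-Veh-3, KO-Veh-4, KO-Veh-5, KO-Veh-6, KO-Veh-8, KO-Veh-9, KO-Veh-10, WT-aKG-3, WT-aKG-6, WT-aKG-7, WT-Veh-1, WT-Veh-6, WT-Veh-9. Without KO-Veh-7 there were 6 members lower: Atp5f1b (-0.22), Cox6b1 (-0.25), Cox6b2 (-0.97), Cox7a1 (-0.86), Cox8a (-0.41) and Cyc1 (-0.28). The share of all genes called lower in that fit was not set beside this count. KO-Veh-7 was the only cerebellum-high KO-Veh library, while 3 WT-Veh and 4 WT-aKG ones stayed in the fit. The part of this imbalance in the calls was not tested. Without the cerebellum-high libraries Atp5pb was called higher (0.29) and Atp5f1d, the δ subunit of the central stalk, lower (-0.20), where 1809 of 16524 genes were called. Atp5if1 was 0.14 without these libraries (edgeR adjusted p = 0.418), and Cox8a was -0.40 (edgeR adjusted p = 0.0565). With region scores as covariates Atp5if1 was 0.29 and called (adjusted p = 0.0154), while Cox8a was -0.12 and not called (adjusted p = 0.378).

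dm-αKG gave no called member in wild types, and edgeR called no gene of 16255 (0%), whereas DESeq2 called 90 genes. In WT-aKG against WT-Veh the members nevertheless leaned upward: 41 of 44 had a positive log2 fold change, with a median of 0.29, where the median of all genes was -0.01 and 47.8% were positive. At an unadjusted p under 0.05, 19 members were higher and 0 lower, where 4.61% of all genes were higher and 3.93% lower. DESeq2 called 2 members higher, Atp5mf and Uqcrb. The members vary together between libraries, so these counts are not independent of each other. The median log2 fold change was 0.22 for complex III, 0.32 for complex IV and 0.26 for complex V. Complex I leaned the same way: of its 37 nuclear subunits, 34 were positive with a median of 0.28, and 25 were higher at an unadjusted p under 0.05.

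Uqcrb, a small matrix-side subunit of complex III, had the smallest p of the members. It ran between 170 and 267 CPM with a median of 195 in WT-aKG, against 145 to 205 CPM with a median of 158 in WT-Veh, a log2 fold change of 0.35 (SE 0.10, edgeR adjusted p = 0.224, DESeq2 adjusted p = 0.0390). Atp5mf, the f subunit of the ATP synthase membrane part, ran between 548 and 835 CPM with a median of 610 in WT-aKG, against 362 to 585 CPM with a median of 487 in WT-Veh. Its log2 fold change was 0.42 (SE 0.12, edgeR adjusted p = 0.226, DESeq2 adjusted p = 0.0455). For both genes the ranges overlapped. The largest fold changes were those of the weak isoforms Cox7a1 (0.57, SE 0.40) and Cox8b (0.52, SE 0.44), followed by Cox7c (0.42), Uqcrh (0.42). Atp5f1a, the α subunit of the synthase head, had -0.09, the lowest value.

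The lean was smaller without some libraries. Without the cerebellum-high libraries 39 of 44 members were positive with a median of 0.22, and 4 were higher at an unadjusted p under 0.05, where the median of all genes was -0.02 and 2.89% were higher. With region scores as covariates 42 of 44 were positive with a median of 0.26, and 27 were higher at an unadjusted p under 0.05. Among all genes 7.93% were higher in that fit. With the share of mitochondrial ribosomal RNA as a covariate 41 of 44 were positive (median 0.30, 24 higher at such a p, all genes 7.16%). With Xist as a covariate 41 of 44 were positive too (median 0.31, 21 higher, all genes 4.24%). Leaving out single libraries gave medians of 0.23 (without WT-aKG-3) to 0.32 (without WT-aKG-5). Across 37 members with at least 20 CPM and a known transcript, the fold change was larger for short transcripts: the median was 0.30 for the 24 with transcripts under 1000 bases and 0.09 for the 13 longer ones, with a Spearman correlation of -0.61 across genes, which are not independent replicates. In KO-aKG against KO-Veh the same correlation was -0.06.

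**Figure D3:**
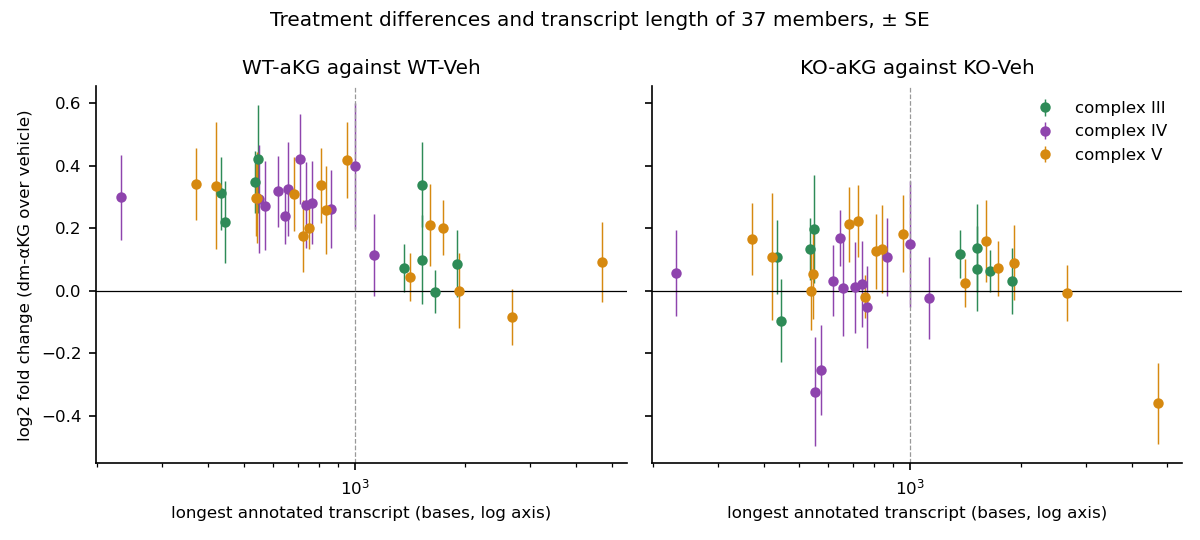
Log2 fold change of dm-αKG over vehicle (± SE) against the longest annotated transcript in bases (log axis; Cox6c2, a pseudogene, is the shortest) for 37 members, coloured by complex, in wild types (left) and knockouts (right); the dashed line marks 1000 bases. In wild types the shorter transcripts have a median of 0.30 and the longer ones 0.09.

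In knockouts dm-αKG gave no called member either, and no gene was called (0%). In KO-aKG against KO-Veh 34 of 44 members were positive, with a median of 0.08 against -0.01 for all genes. With no adjustment, 1 member was higher and 1 lower at p under 0.05, where 5.76% of all genes were higher and 6.38% lower, and DESeq2 called none. All 12 oligodendrocyte markers were positive here (median 0.86, 11 of them at an unadjusted p under 0.05) and all 15 cerebral cortex markers negative (median -0.70, 4 of them at such a p), but edgeR called none. Summed, the oligodendrocyte markers ran between 8261 and 34922 CPM in KO-aKG and 3458 and 20225 CPM in KO-Veh, and the cortex markers between 358 and 1147 CPM in KO-aKG and 663 and 2044 CPM in KO-Veh. Their part in the member values was not tested. Cox8b was the higher gene. It ran between 0.303 and 6.81 CPM with a median of 1.70 in KO-aKG, against 0.321 to 2.13 CPM with a median of 0.671 in KO-Veh, a log2 fold change of 1.58 (SE 0.46, adjusted p = 0.214). Atp5mc1 was the lower one, at 122 to 273 CPM with a median of 173 in KO-aKG and 176 to 312 CPM with a median of 217 in KO-Veh (-0.36, SE 0.13, adjusted p = 0.259).

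Atp5mc1, Atp5mc2 and Atp5mc3 code for the same mature c-ring protein with different import sequences. Their log2 fold changes in KO-aKG against KO-Veh were -0.36, -0.02 and 0.22, and none was called. Atp5mc1 shares 411 aligned bases at 99.8% identity with its copy Gm10039, which had 87.9 CPM, so its value is uncertain. The genotype and treatment comparisons share libraries: KO-aKG, KO-Veh, WT-aKG and WT-Veh each enter a comparison of both kinds, so their values are not independent.

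The treatment difference in knockouts minus that in wild types was called for no member and no gene (0%). Its median over members was -0.20, and 36 of 44 were negative, where the median of all genes was -0.01. Before adjustment, 4 members were lower and 0 higher at p under 0.05, where 2.07% of all genes were lower and 2.42% higher, and DESeq2 called none. Without the cerebellum-high libraries the median was -0.10, and with limma on the CPM table it was 0.03, where the median of all genes was 0.17. The members with an unadjusted p under 0.05 were Cox8a (-0.62), Cox6a1 (-0.53), Atp5mc1 (-0.45) and Atp5mc2 (-0.22), each with an adjusted p of 0.961 (edgeR).

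The members followed each other between libraries. For the 39 members of at least 20 CPM, the median correlation of log2 levels over the 36 libraries, after removing group means, was 0.59 within complex III, 0.54 within complex IV and 0.51 within complex V. It was 0.62 between complexes III and V, 0.43 between III and IV and 0.45 between IV and V. All members of a library share its depth and tissue makeup, so this is a description. Cox6b1, Uqcrq and Cox7a2 followed the others most closely, with mean correlations of 0.63, 0.63 and 0.62. Cox7a2l, a factor that joins complexes III and IV into supercomplexes, ran against them (-0.21), and Atp5mc1 (-0.06), Atp5f1d (-0.01) and Uqcrc1 (0.07) did not follow them.

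The shared level, scaled by TMM, was low in a few vehicle libraries. The median deviation of the members from their mean over all libraries was -0.75 log2 units in KO-Veh-9, the lowest of all, and -0.43 in both WT-Veh-3 and WT-Veh-2. It was highest in WT-aKG-3 (0.49) and WT-aKG-7 (0.40), both cerebellum-high. Group medians were 0.04 in KO-aKG, -0.03 in KO-Veh, 0.07 in WT-aKG and -0.13 in WT-Veh. KO-Veh-9 also had the lowest share of mitochondrial ribosomal RNA, 14.1%, and the highest TMM factor, 1.35. By share of a library's counts, the members took 1.68% in both KO-Veh-9 and WT-Veh-4. WT-Veh-4 had a TMM factor of 0.75 and a deviation of 0.07. The lowest share, 1.56%, was that of KO-Veh-4, with a deviation of -0.03. The part of ribosomal RNA and of scaling in the low subunit level of KO-Veh-9 was not tested. Without KO-Veh-9 the member median was 0.14 in KO-Veh against WT-Veh and 0.03 in KO-aKG against KO-Veh. Without KO-Veh-7, a cerebellum-high library, these medians were 0.02 and 0.14, where all libraries gave 0.10 and 0.08.

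**Figure D4:**
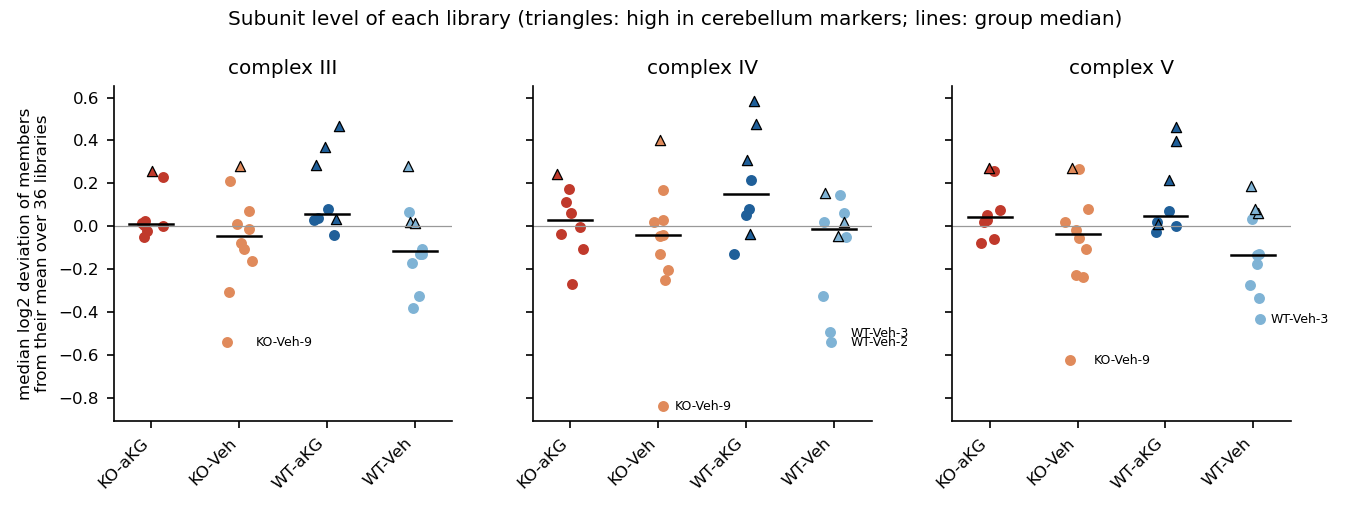
Median log2 deviation of the members of complexes III, IV and V from their mean over 36 libraries, for each library (points; triangles are cerebellum-high) in KO-aKG, KO-Veh, WT-aKG and WT-Veh, with group medians as lines. KO-Veh-9 is the lowest library in all 3 complexes, and the lowest libraries are named.

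More members rose than fell with the cerebellum score. In a fit of the 4 groups plus the cerebellum score, 26 of 44 members rose and 2 fell with the score at an adjusted p under 0.05 (edgeR), where 57.4% of all genes were called, 29% higher and 28.4% lower. At an unadjusted p under 0.05, 31.2% of all genes were higher and 30.5% lower. The strongest slopes, in log2 units per score unit, were those of Cox7a1 (0.40), Cox6b2 (0.37), Cox8b (0.25), Cox7b2 (0.20) and Cox4i2 (0.17), all weakly expressed isoforms, and of Cyc1 (0.13). The genes that fell were Cox7a2l (-0.12, SE 0.02) and Atp5if1 (-0.06, adjusted p = 0.0366). In the 27 libraries that were not cerebellum-high no member was called in either direction by edgeR. There the score ran only between 1.94 and 4.48, and the share of all genes called in that fit was not set beside this.

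Cox7a1 ran between 14.3 and 43.9 CPM with a median of 23.9 in the 9 cerebellum-high libraries, against 4.05 to 13.1 CPM with a median of 6.82 in the 27 others. Cox6b2 ran between 8.98 and 23.4 CPM with a median of 16.6 in the cerebellum-high libraries, against 3.08 to 8.21 CPM with a median of 5.08 in the others. Neither gene overlapped between the 2 sets, which were formed from marker levels in these same libraries. How many of all genes separate these sets was not counted. Cox7a2l ran the other way, 79.4 to 127 CPM with a median of 102 in the cerebellum-high libraries and 110 to 179 CPM with a median of 135 in the others. Of the 12 muscle markers only 4 passed the filter. Of these, 3 fell with the score and none rose, where 28.4% of all genes fell and 29% rose.

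**Figure D5:**
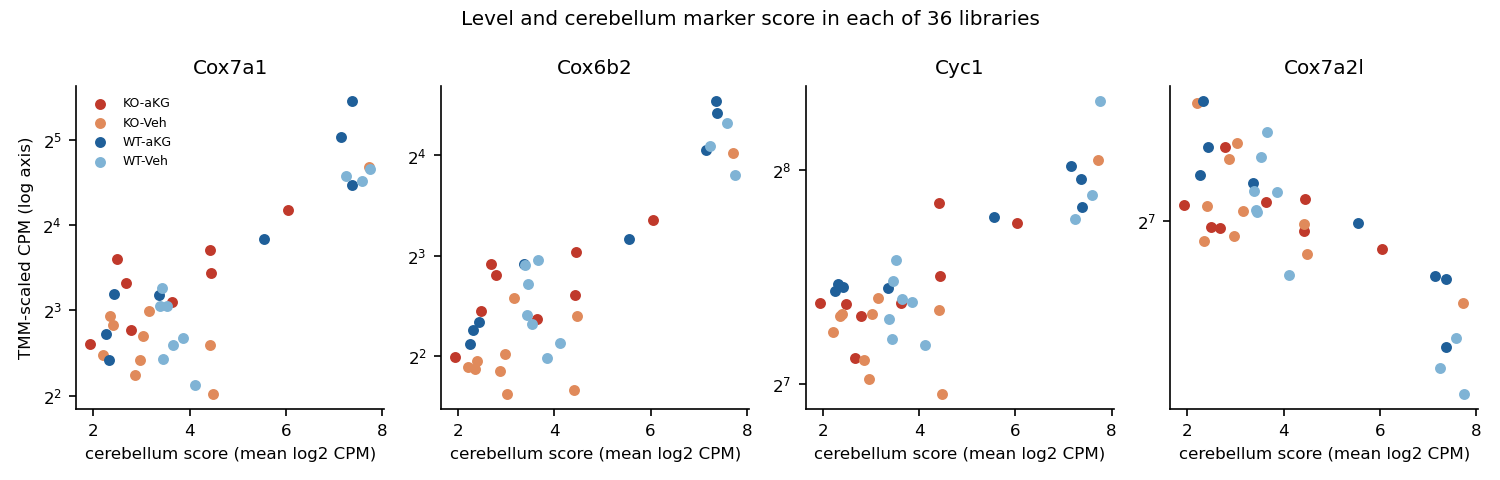
TMM-scaled CPM (log axis) of Cox7a1, Cox6b2, Cyc1 and Cox7a2l against the cerebellum score (mean log2 CPM of 21 markers) in each of 36 libraries, coloured by group. The 9 libraries at scores of 5.55 and more are high in Cox7a1, Cox6b2 and Cyc1 and low in Cox7a2l.

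Genes that build or partner these complexes were set beside the members. All 9 complex III assembly factors had a positive log2 fold change in both genotype comparisons, and in KO-Veh against WT-Veh 3 of 9 were called higher, where 2.6% of all genes were called higher and 46.7% were positive: Uqcc3 (0.28), Uqcc4 (0.33) and Uqcc5 (0.36). In the mean of both treatments Uqcc6 (0.34, adjusted p = 0.0218) joined them. In KO-aKG against WT-aKG edgeR called none of the 9, the smallest adjusted p was 0.297, and 1 was higher at an unadjusted p under 0.05. All 9 were also positive in both treatment comparisons, with a median of 0.20 in WT-aKG against WT-Veh and 0.11 in KO-aKG against KO-Veh. Of 28 complex IV assembly factors tested, Cox16 was called higher in KO-Veh (0.39, adjusted p = 0.00637), Coa5 lower in KO-aKG against WT-aKG (-0.56, adjusted p = 0.0212), and 4 were higher and 3 lower in the mean of both, where 5.7% of all genes were higher and 6.17% lower. The highest ranked of these by p were Cox16 (0.31), Coa5 (-0.39), Smim20 (0.28) and Higd2a (-0.22). None of 6 complex V assembly factors was called.

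The 6 subunits of these complexes that the mitochondrial genome encodes were not called in any group comparison by edgeR. Their median log2 fold change was 0.10 in KO-Veh against WT-Veh, -0.36 in KO-aKG against WT-aKG, 0.01 in WT-aKG against WT-Veh and -0.44 in KO-aKG against KO-Veh, where 3 of 6 were lower at an unadjusted p under 0.05, against 6.38% of all genes. Among 37 nuclear complex I subunits, 4 were called higher and none lower in KO-Veh, where 4.31% of all genes were called: Ndufc1 (0.30), Ndufa12 (0.22), Ndufa9 (0.30) and Ndufs3 (0.20). In the mean of both treatments 8 were higher and 1 lower, where 11.9% of all genes were called. In KO-aKG against WT-aKG edgeR called none of the 37, 4 were higher and 2 lower at an unadjusted p under 0.05, and the median was 0.01. Sdha of complex II was lower (-0.29) in KO-Veh and Sdhb was higher (0.18) in the mean of both, while Cycs, cytochrome c, was lower in that mean (-0.24, adjusted p = 0.0132). Of 14 regulators of mitochondrial biogenesis, 5 were positive and 9 negative in KO-Veh against WT-Veh. Tfb2m alone was called higher (0.33) and Ppargc1a, the coactivator PGC-1α, alone lower (-0.37), where 2.6% of all genes were higher and 1.72% lower. In the mean of both treatments 2 were called higher and 2 lower, where 5.7% of all genes were higher and 6.17% lower. There Tfam (0.18) joined Tfb2m as higher and Ppargc1b (-0.68) joined Ppargc1a as lower. Whether these lists differed from the members was not tested.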

How the data were processed

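RNA of 36 mouse brain libraries was primed with oligo-dT carrying barcodes and molecular identifiers and tagmented, per the labels' protocols. Per the submitters' processing notes, the tools were HISAT2 2.2.1, featureCounts 2.0.6, Trim Galore 0.6.10, SAMtools 1.6, deepTools and FastQC 0.12.1, and the builds mm10 and mm39 are named without a role. The deposited estimated counts need not be whole, and they were rounded before testing. The deposited CPM table (21637 genes, 43 members), whose making no header or label describes, served for limma alone, as log2(CPM + 0.5).

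Genes were filtered with filterByExpr, scaled by TMM and fitted in 4 groups over all 36 libraries by a robust quasi-likelihood fit in edgeR 4.0.16 (R 4.3.3), after the procedure was tested on simulated data. P-values were adjusted over 16255 genes, with a threshold of 0.05. Alternatives used DESeq2 1.42.0, limma 3.58.1, DESeq2 size factors, no filter, only the groups compared, region scores as covariates, no cerebellum-high libraries, a replicate block and each library left out. Covariates for Xist and mitochondrial ribosomal RNA, and added counts of near copies, were chosen after seeing the data. Members, lists and the rule for named genes (called members, the 5 highest and lowest between genotypes, paired isoforms, members at the extremes of level, and up to 4 called genes of each other list) were chosen with earlier results of these data known. Libraries held 5.77 to 13.3 M counts. Among 146 pairs of libraries of a group, 0 held identical values. Near copies were sought among GENCODE M21 transcripts, and promoters came from RefSeq (GRCm38.p6).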

Additional observations from a re-analysis of the deposited data

Results flagged for a closer look

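In 13 of 176 tests of a gene in a group, the extreme library stood apart from the others by Dixon's test, of which chance flags about 1 in 20. KO-Veh-7 gave 6 and WT-Veh-1 gave 3 of them, and both libraries are cerebellum-high; the part of the score in these values was not tested. In KO-Veh-7, Atp5f1a had 548 CPM, Atp5f1b 627 CPM, Cox6b2 16.3 CPM, Cox7a1 25.7 CPM, Cyc1 264 CPM and Uqcrc1 191 CPM, each the highest of its group. In WT-Veh-1, Atp5f1a had 711 CPM, Atp5f1b 848 CPM and Cyc1 320 CPM. Outside these, Atp5f1a stood at 587 CPM in KO-aKG-8, Cox7a2l at 157 CPM in KO-aKG-3, Cox4i2 at 3.63 CPM in WT-aKG-6 and Cox7b2 at 3.3 CPM in WT-Veh-6.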

How the results depend on the processing

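No called log2 fold change of a member changed sign under the alternatives run. In KO-Veh against WT-Veh, members called higher numbered 1 as reported, where 701 of 16255 genes were called in either direction. They numbered 0 without a filter on low counts (348 of 36686 genes called), without cerebellum-high libraries (623 of 16524) or with only the groups compared (324 of 15026). With region scores as covariates they numbered 2 (1704 of 16255 genes called). With the mitochondrial rRNA share as a covariate 2 were higher and 4 lower, where 2808 of 16255 genes were called. In KO-aKG against WT-aKG, members called lower numbered 0 without a filter, with region scores, without cerebellum-high libraries, with only the groups compared and with limma. Genes called in either direction were 304 as reported, and 145, 410, 599, 230 and 210 in these fits in the same order. In the mean of both treatments, members called higher numbered 0 without a filter, 3 with region scores and 0 with Xist as a covariate. Members called lower numbered 0 without a filter, with region scores or with limma, 1 without cerebellum-high libraries or with Xist, and 5 with the rRNA share. Genes called in that mean were 1930 as reported, 1186 without a filter and 2855 with region scores. They were 947 with limma, 1809 without cerebellum-high libraries, 1804 with Xist and 4177 with the rRNA share. In WT-aKG against WT-Veh, DESeq2 called 2 higher and the rRNA share 1, where 90 of 36686 and 250 of 16255 genes were called. Along the cerebellum score 1 member was lower without a filter, and 0 were lower and 0 higher without the cerebellum-high libraries. Leaving out each library gave 0 to 1 higher and 0 to 1 lower in KO-Veh against WT-Veh, 0 to 1 lower in KO-aKG against WT-aKG, 0 to 1 higher and 0 to 6 lower in the mean, and 20 (without KO-Veh-7) to 31 (without KO-Veh-9) higher and 1 to 3 lower along the score. The causes were not tested. The share of all genes called was not set beside the counts with a library left out, nor beside those of the alternative fits along the score. Same-numbered libraries deviated together (correlation over 0.1) in 3 of 10 pairs of KO-Veh and WT-Veh, 6 of 8 of KO-aKG and WT-aKG, 3 of 8 of WT-aKG and WT-Veh and 3 of 8 of KO-aKG and KO-Veh, so that no comparison had every pair over 0.1, and the numbers were not taken to pair the libraries; whether some share a source was not settled by this. With the replicate block the calls were unchanged, at 0.41 for Atp5if1 (adjusted p = 0.0432) and -0.71 for Cox8a (adjusted p = 0.0345, edgeR). Near copies with counts of their own limit Atp5mg, Atp5mc1, Cox5b and Cox6c2 among others, and low counts limit Cox4i2, Cox7b2 and Cox8b.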
